A study of Rattus norvegicus with 13 samples.

Results

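Luminal and basal keratins were followed in mammary epithelial cells from rats within and outside the window of susceptibility to mammary cancer (WOS). The 8 keratins were chosen by gene symbol. *Krt7*, *Krt8*, *Krt18* and *Krt19* stand for the luminal side of the mammary duct, and *Krt5*, *Krt14*, *Krt15* and *Krt17* for the basal side. All 8 were among the 14790 genes of the expression table, and all 8 passed the minimum mean of 1. RNA-seq was made from 13 Wistar-Furth rats, a strain prone to mammary cancer, with 1 library for each rat and no treatment named. There were 6 rats of 6 weeks of age, which is within WOS, and 7 rats of 10 weeks, which is outside WOS. Abdominal and inguinal glands were freed of lymph nodes, digested with collagenase and passed over a filter that held back ductal fragments. Such fragments keep luminal and basal cells together and can carry stromal and immune cells along, so each value is a mean over a mixture.

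Keratins are the intermediate filament proteins of epithelial cells. A filament forms only when a type I keratin pairs with a type II keratin, and the choice of pair differs between cell layers. In the mammary duct the inner, luminal cells are known for *Krt8* and *Krt18*, often with *Krt7* and *Krt19*, while the outer, contractile basal cells are known for *Krt5* and *Krt14*, often with *Krt15* and *Krt17*. These genes are widely used to tell the layers apart, and the filaments are anchored to neighbouring cells at desmosomes and to the basement membrane at hemidesmosomes.

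The members lie in the large keratin clusters of the rat genome. RefSeq lists 50 protein-coding genes with a symbol of Krt and a number alone in assembly GRCr8, of which 16 were in the expression table. Keratins with a lettered symbol, such as *Krt6a*, are not among them. *Krt8* (type II) and *Krt18* (type I) are direct neighbours, as are *Krt15* and *Krt19*, while *Krt17* lies between *Krt16* and *Krt42*. Promoter sequences from RefSeq (GRCr8) were matched for 3 of the 8 members, *Krt8*, *Krt18* and *Krt5*. Stretches of 150 bases before the annotated start are shown here, because they set the promoters of the neighbouring luminal partners beside that of a basal keratin. The *Krt8* stretch is chr7:135010340-135010489 on the minus strand, the *Krt18* stretch is chr7:135036018-135036167 on the plus strand and the *Krt5* stretch is chr7:134730570-134730719 on the minus strand. Each is written 5′ to 3′ on the strand of its gene, and capitals mark matches to the motifs searched.
Krt8: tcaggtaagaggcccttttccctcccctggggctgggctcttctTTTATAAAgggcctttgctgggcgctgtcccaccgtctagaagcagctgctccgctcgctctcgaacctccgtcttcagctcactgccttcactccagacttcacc
Krt18: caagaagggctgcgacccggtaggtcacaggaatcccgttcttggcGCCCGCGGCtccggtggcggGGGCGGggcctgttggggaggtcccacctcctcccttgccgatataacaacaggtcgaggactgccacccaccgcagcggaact
Krt5: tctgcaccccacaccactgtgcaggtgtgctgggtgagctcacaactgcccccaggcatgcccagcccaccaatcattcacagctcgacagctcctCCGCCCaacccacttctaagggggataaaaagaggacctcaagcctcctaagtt

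The motifs searched on both strands were the TATA box TATAAA, the GC box GGGCGG and the AP-2 motif GCCNNNGGC. Over the 250 bases before the start, TATAAA was found in 12.9%, GGGCGG in 30.5% and GCCNNNGGC in 12.6% of 33469 rat promoters. In the *Krt8* stretch TATAAA occurred on both strands, at 104 and 106 bases before the start, as overlapping matches. The *Krt18* stretch held an AP-2 match at 104 and a GC box at 84 bases before the start. The *Krt5* stretch held a GC box on the other strand, 54 bases before the start. These are matches of letters and not mapped binding sites.

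Values are normalized counts, meaning estimated read counts that the authors multiplied by a factor for each library and rounded. They summed to between 13261906 and 15659533 for each rat, and the most abundant gene took 14.3% to 27.9% of the sum. Centred on their own age, the rats were cut into 2 sets at the largest gap along the first principal component. Such a cut gives 2 sets in any data, and no label names this one. The larger, here the 8-rat set, held 4 rats of each age, and the smaller, the 5-rat set, held 2 rats of 6 weeks and 3 of 10 weeks. Differences between ages were tested in limma, using log2(normalized count + 1) and all 14790 genes. A gene was called at an adjusted p under 0.05 after Benjamini-Hochberg, and these p-values measure the spread between the rats at hand. By this rule 8.71% of all genes were higher at 6 weeks and 7.39% were lower, and the values of the 2 ages did not overlap in 6.07% of genes.

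Of the 8 keratins, 1 was called between the ages. This was *Krt15*, a type I keratin of basal layers, which was 1.6-fold higher at 6 weeks (95% interval 1.17 to 2.19). None of the 4 luminal keratins was called. The median log2 fold change of 6 weeks over 10 weeks was -0.02 over the luminal keratins and 0.25 over the basal keratins, against 0.03 over all genes. The ages overlapped in all 8 keratins. In such bulk samples, fewer cells of a type and less RNA per cell cannot be told apart.

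*Krt8*, the type II partner of *Krt18* in simple epithelia, ranged from 6486 to 15247 normalized counts at 6 weeks with a median of 10407.5, and from 8857 to 17432 at 10 weeks with a median of 11543. The ages overlapped broadly. Its means were 10951 ± 3138 (SD, n = 6) at 6 weeks and 12324 ± 3167 (SD, n = 7) at 10 weeks, and the log2 fold change of -0.18 (SE 0.21, adjusted p = 0.592) was not called. Its 95% interval ran from -0.65 to 0.28. It was 0.15 in the 8-rat set but -0.67 in the 5-rat set, so the direction differed between the sets. That difference between sets was not tested.

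*Krt18* ranged from 2660 to 5271 normalized counts at 6 weeks, with a median of 4082.5, and from 3630 to 5029 at 10 weeks, with a median of 4333. The younger rats were the more spread out, with 3 of 6 below and 2 of 6 above every rat of 10 weeks. The coefficient of variation was 25.9% at 6 weeks and 11% at 10 weeks. Means of 4120 ± 1068 (SD, n = 6) and 4285 ± 473 (SD, n = 7) gave a log2 fold change of -0.09 (SE 0.16, 95% interval -0.44 to 0.26, adjusted p = 0.733).

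*Krt19*, a type I keratin with an unusually short tail, ranged from 2047 to 5742 normalized counts at 6 weeks (median 3743) and from 2032 to 5888 at 10 weeks (median 3499), so that the ages spanned nearly the same range. The log2 fold change was 0.06 (SE 0.29, 95% interval -0.56 to 0.68, adjusted p = 0.904). The 8-rat set gave 0.48 and the 5-rat set -0.50.

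*Krt7*, a type II keratin of ducts and other simple epithelia, was measured at 262 to 934 normalized counts at 6 weeks (median 723) and at 333 to 925 at 10 weeks (median 425). In 5 of 6 younger rats the value was above the 10-week median, while rat 86 had the lowest value of all 13. The means were 697 ± 239 (SD, n = 6) and 493 ± 202 (SD, n = 7). The log2 fold change of 0.47 (SE 0.30, 95% interval -0.18 to 1.13, adjusted p = 0.304) was not called. Without rat 86 it was 0.73 (adjusted p = 0.0492), past the threshold.

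Among the basal members, *Krt5*, the type II partner of *Krt14*, ranged from 1310 to 2416 normalized counts at 6 weeks (median 1554) and from 1016 to 2151 at 10 weeks (median 1181). All 6 younger rats were above the 10-week median, yet the ages overlapped. Means of 1686 ± 405 (SD, n = 6) and 1364 ± 405 (SD, n = 7) gave a log2 fold change of 0.32 (SE 0.20, 95% interval -0.10 to 0.75, adjusted p = 0.277). The 8-rat set gave 0.54 and the 5-rat set -0.02.

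*Krt14*, which marks the contractile basal cells of the duct, ranged from 1707 to 4864 normalized counts at 6 weeks (median 3105.5) and from 2049 to 3961 at 10 weeks (median 2699). The younger rats reached both lower and higher than the older ones. With means of 3281 ± 1113 (SD, n = 6) and 2881 ± 736 (SD, n = 7), the log2 fold change was 0.15 (SE 0.24, 95% interval -0.36 to 0.66, adjusted p = 0.695).

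*Krt17*, a keratin known for its induction in stressed and growing epithelia, was the most variable member. It ranged from 1537 to 5560 normalized counts at 6 weeks (median 3901) and from 1447 to 6561 at 10 weeks (median 2931), with a coefficient of variation of 37.5% and 52.0%. The younger rats all lay within the range of the older ones. The log2 fold change was 0.18 (SE 0.37, 95% interval -0.61 to 0.98, adjusted p = 0.767). *Krt14*, *Krt16*, *Krt17* and *Krt42* are closely related in sequence, so the counting could have split reads between them.

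The 6 younger rats gave 1867, 1490, 1123, 1017, 960 and 764 normalized counts of *Krt15*, in descending order, and the 7 older rats gave 1084, 832, 732, 689, 607, 603 and 601. Of the younger rats, 3 were above every older rat and all 6 were above the 10-week median. The overlap came from 1 older rat, rat 83 at 1084, and for rat 86 at 764 from a second, rat 87. Means of 1204 ± 404 (SD, n = 6) and 735 ± 176 (SD, n = 7) gave a log2 fold change of 0.68 (SE 0.21, 95% interval 0.22 to 1.13, adjusted p = 0.0445). The 8-rat set gave 0.88 (adjusted p = 0.0475) and the 5-rat set 0.33 (adjusted p = 0.640). The call lay close to the threshold. It held without rat 75, 83 or 86, and was lost without any of the 10 others (rats 70, 71, 72, 74, 78, 80, 81, 84, 85 and 87), where the log2 fold change was 0.54 to 0.71 and the adjusted p 0.0527 to 0.101. Scaling by library size also lost it (0.72, adjusted p = 0.0516).

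**Figure D1:**
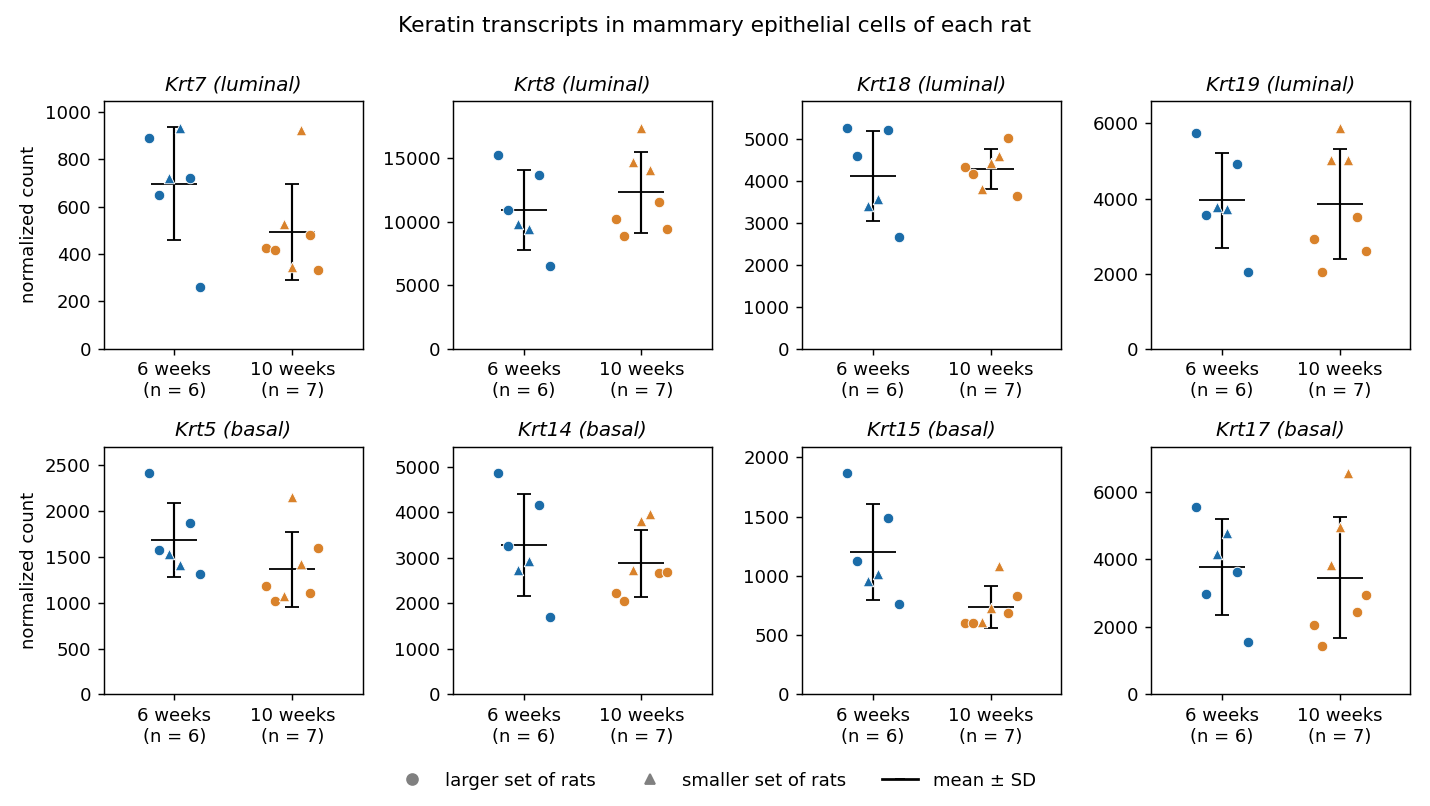
Normalized counts of the 8 keratins in each rat at 6 weeks (n = 6) and 10 weeks (n = 7), with luminal keratins in the upper and basal keratins in the lower panels; circles are rats of the 8-rat (larger) set, triangles those of the 5-rat (smaller) set, and bars show mean and SD. The ages overlap in every panel, and in *Krt15* all 6 younger rats lie above the 10-week median of 689.

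**Figure D2:**
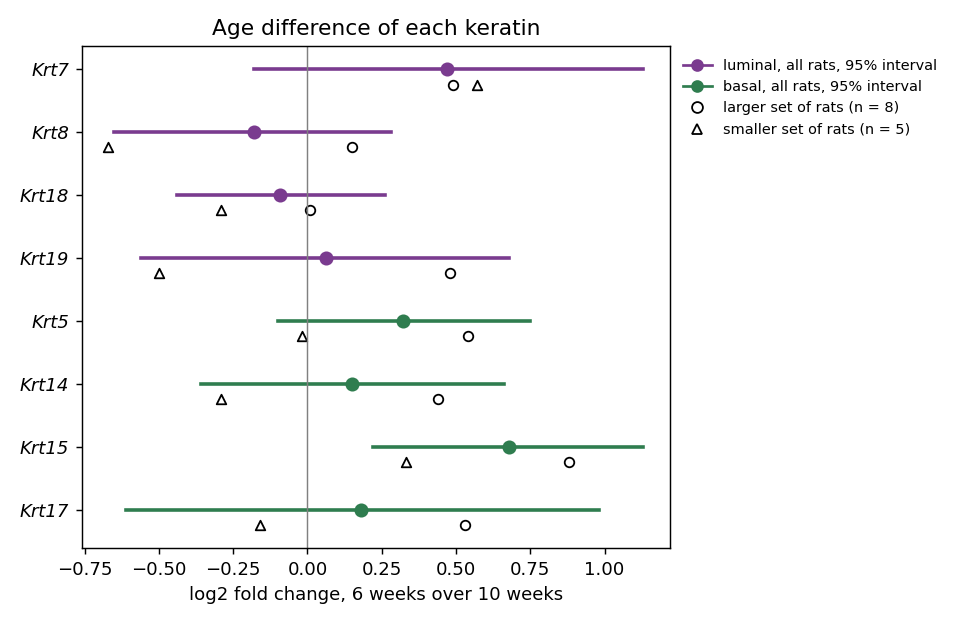
Log2 fold changes of 6 weeks over 10 weeks for the 8 keratins with their 95% intervals, beside the values in the 8-rat (larger) and 5-rat (smaller) sets. The interval of *Krt15*, from 0.22 to 1.13, is the only one of the 8 that does not include 0.

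The keratins varied together from rat to rat. Rat 86 had the lowest value of the 6-week rats for all 8 keratins, and rat 70 had the highest for 7 of 8, with *Krt7* highest in rat 80. At 10 weeks, rat 83 was above the median of its age for all 8 keratins and rats 72 and 74 for none. Rat 86 also had the largest share of the most abundant gene (27.9%). Its mean log2 level of luminal markers other than keratins (9.13) was the lowest of all 13 rats, and its mean log2 level of fibroblast markers (12.08) was the highest. The part of these in its low keratin values was not tested.

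Ratios of 2 keratins within a rat do not depend on the scaling of the library. Of 28 such ratios, 3 did not overlap between the ages, and each had *Krt15* below the line. All 28 recombine the values of the same 8 keratins, so these 3 are not results separate from the *Krt15* call. The share of all genes whose ratio to *Krt15* did not overlap was not computed, so the 3 of 28 has no matching background. For *Krt8* over *Krt15*, the 6 younger rats lay at 8.17 to 10.3 (median 9.25) and the 7 older rats at 11.3 to 24.2 (median 16.8). The ages were thus separate, though neither gene alone was. The mean log2 ratio decreased by 0.86 at 6 weeks relative to 10 weeks. It decreased by 0.73 in the 8-rat set and by 1.0 in the 5-rat set. Over all genes, the ratio to *Krt8* did not overlap between the ages in 5.54%.

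*Krt18* over *Krt15* lay at 2.82 to 4.09 (median 3.51) in the younger and 4.24 to 7.30 (median 6.27) in the older rats, again without overlap. Of all genes, 4.61% had a ratio to *Krt18* that did not overlap. The third such ratio was between basal keratins, *Krt14* over *Krt15*, at 2.23 to 2.91 (median 2.82) in the younger and 3.24 to 5.21 (median 3.71) in the older rats. Of all genes, 1.87% had a ratio to *Krt14* without overlap, the smallest share of these 3. In all 3 ratios the difference had the same sign in both sets of rats, which follows from the lack of overlap.

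The classical partners did not show this. *Krt8* over *Krt18* was 2.39 to 2.90 at 6 weeks and 2.12 to 3.94 at 10 weeks, and *Krt5* over *Krt14* was 0.448 to 0.767 and 0.360 to 0.592. Between the layers, *Krt8* over *Krt14* was 3.13 to 3.80 (median 3.31) in the younger rats and 3.50 to 5.38 (median 4.32) in the older rats, with 4 of 6 younger rats below every older one. Of the 16 luminal-over-basal ratios, 13 had a lower mean at 6 weeks, and the 3 others all had *Krt7* above the line. These 16 recombine the values of the same 8 keratins and are not separate results. The 4 luminal keratins summed over the 4 basal keratins came to 1.74 to 2.21 (median 2.02) at 6 weeks and 1.89 to 3.03 (median 2.92) at 10 weeks. There the ages overlapped through rats 83 (1.89) and 87 (1.99).

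**Figure D3:**
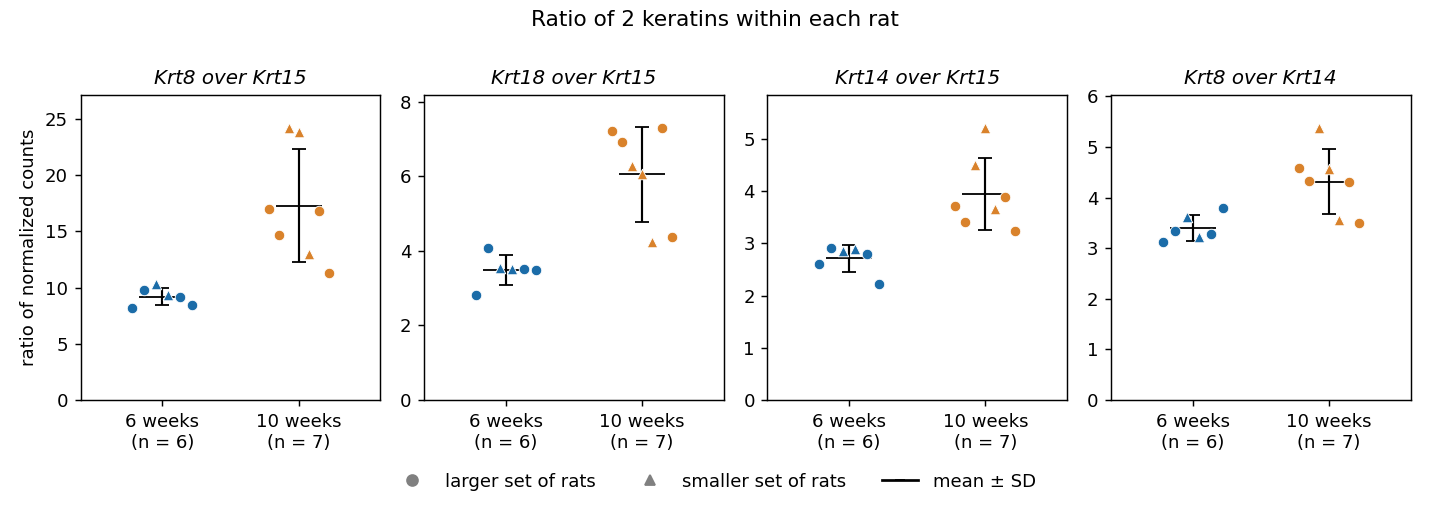
Ratios of normalized counts within each rat at 6 weeks (n = 6) and 10 weeks (n = 7), on linear axes from 0, for 4 ratios; circles are rats of the 8-rat (larger) set, triangles those of the 5-rat (smaller) set, and bars show mean and SD. *Krt8* over *Krt15* and *Krt14* over *Krt15* separate the ages, at 8.17 to 10.3 against 11.3 to 24.2 and at 2.23 to 2.91 against 3.24 to 5.21.

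To describe how the members varied together, Pearson r and Spearman rho were computed for the 28 pairs on values centred on the mean of their age, with permutation within ages (100000 resamples, two-sided) and adjustment over the 28 pairs. All keratins of a rat share its library, its scaling and its share of epithelial cells. All 28 pairs had a positive r, from 0.12 to 0.97 with a median of 0.68, and 22 passed an adjusted p under 0.05. These were 6 of 6 basal pairs, 4 of 6 luminal pairs and 12 of 16 pairs of a luminal with a basal keratin. In the 8-rat set all 28 were again positive, from 0.45 to 0.98, and 16 passed an exact permutation test over 576 orders. When the 2 rats farthest from the median were left out for each pair, 27 stayed positive, with a median r of 0.51, and 5 passed. The share of pairs of other genes that would pass was not tested, so the 22 of 28 has no matching background. With all rats kept, the median r with *Krt8* was -0.06 over 8850 genes with a mean of at least 100. It was 0.07 with *Krt18*, -0.03 with *Krt5* and -0.04 with *Krt14*. Of these genes, 5.74% had as high an r with *Krt18* as the 0.71 of *Krt8*.

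The closest pair was luminal. *Krt8* with *Krt19* had r = 0.97 (permutation, adjusted p = 0.00056) and rho = 0.93 (permutation, adjusted p = 0.00196), and r = 0.94 (permutation, adjusted p = 0.00292) without rats 81 and 86. Of 8850 genes with a mean of at least 100, 2 (0.0226%) had as high an r with *Krt8* as *Krt19* did. *Krt8* with the basal *Krt14* came to r = 0.92 (permutation, adjusted p = 0.00112), rho = 0.88 (adjusted p = 0.00271) and r = 0.84 (adjusted p = 0.0323) without the 2 farthest rats. An r as high was found for 67 genes (0.757%).

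For the partners *Krt8* and *Krt18*, r was 0.71 (permutation, adjusted p = 0.0238) and rho 0.66 (permutation, adjusted p = 0.0432). Without rats 81 and 86 it was 0.59 (adjusted p = 0.185), past the threshold no longer. In the 8-rat set r was 0.96. For *Krt5* with *Krt14*, r was 0.78 (permutation, adjusted p = 0.00796) and rho 0.78 (adjusted p = 0.0123), and without rats 70 and 81 it was 0.69 (adjusted p = 0.0719), likewise not past it. *Krt14* with *Krt15* held throughout, with r = 0.89 (permutation, adjusted p = 0.00189), rho = 0.91 (adjusted p = 0.00271) and r = 0.81 (adjusted p = 0.0368) without rats 70 and 86. As high an r with *Krt14* as the 0.89 of *Krt15* was found for 122 genes (1.38%). So *Krt14* and *Krt15* varied together within each age while their ratio differed between the ages. The lowest r was that of *Krt7* with *Krt5*, at 0.12.

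**Figure D4:**
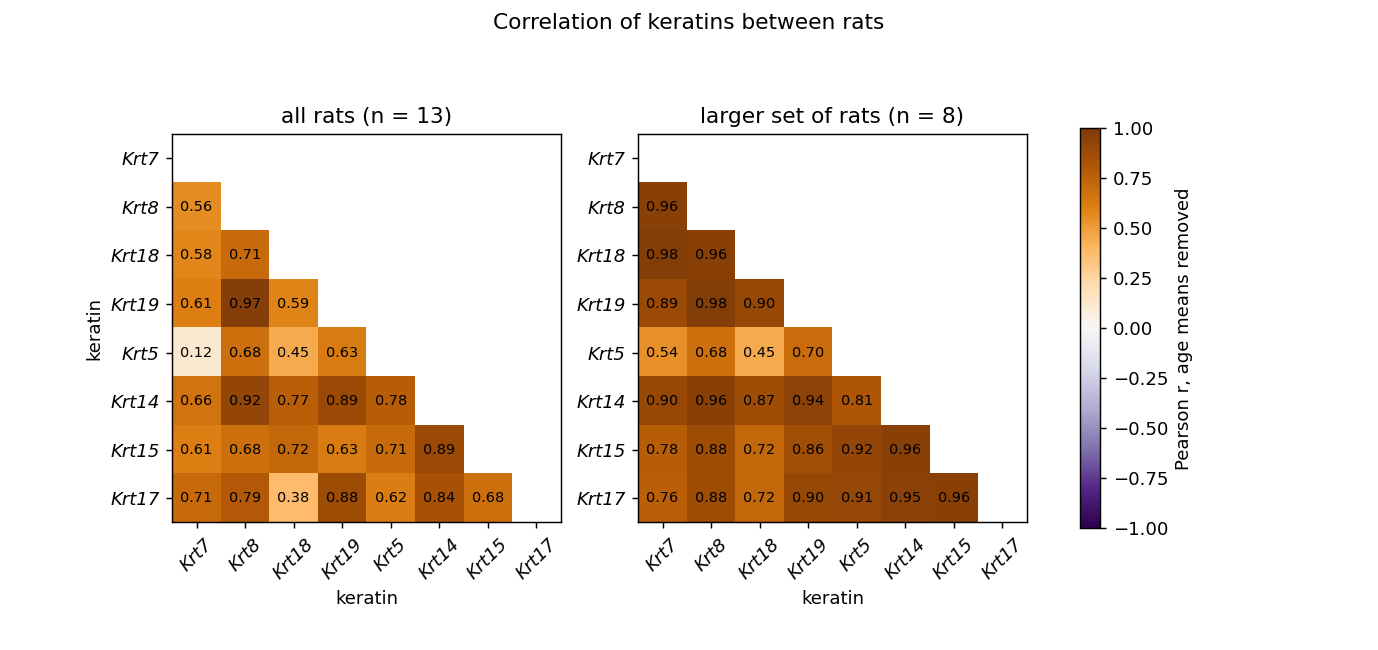
Pearson r of log2(normalized count + 1) with age means removed for the 28 pairs of keratins, over all 13 rats on the left and the 8-rat (larger) set on the right. Every square is positive, the highest on the left being *Krt8* with *Krt19* at 0.97 and the lowest *Krt7* with *Krt5* at 0.12.

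The genes most like the best-known partners were then sought outside the 8 members. Among the 8850 genes with the members left out, and over the 13 rats with age means removed, *Slc25a1*, which encodes the mitochondrial citrate carrier, had the highest r with *Krt8* (0.98), followed by *Tbc1d16* (0.97) and *Ppp1r14b* (0.97). *Krt18* was followed by *Lsr*, a protein of tricellular junctions (0.97), by *Efna1* (0.95), an ephrin ligand, and by *Hid1* (0.95). For *Krt14* they were *Mcrs1*, *Rpl28* and *Hlcs*, each at 0.96, and for *Krt5* they were *Arl3* (0.93), *Duoxa1* (0.92) and *Tex261* (0.92). In the 8-rat set these values were 0.88 to 0.99. They were picked as the highest of many and are given as a description.

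The other keratins in the table with a symbol of Krt and a number alone were *Krt10*, *Krt16*, *Krt23*, *Krt42*, *Krt78*, *Krt79*, *Krt80* and *Krt222*. Of these 8, 1 was called higher at 6 weeks and none lower, with a median log2 fold change of 0.05. *Krt79*, a type II keratin known from hair follicle and sebaceous ducts, averaged 45.7 ± 17.0 normalized counts (SD, n = 6) at 6 weeks and 23.4 ± 5.74 (SD, n = 7) at 10 weeks, a log2 fold change of 0.89 (SE 0.25, adjusted p = 0.0288). It was above every older rat in 5 of 6 younger rats, and lost its call without rat 70, 72, 74, 75 or 84 (adjusted p 0.0528 to 0.0683) and in the 8-rat set (0.89, adjusted p = 0.063). *Krt23* came to 438 ± 105 (SD, n = 6) and 592 ± 142 (SD, n = 7), and *Krt80*, the neighbour of *Krt7*, to 180 ± 83.1 (SD, n = 6) and 234 ± 86.8 (SD, n = 7), without a call (adjusted p = 0.153 and 0.481). *Krt10*, a keratin of differentiating epidermis, stood at 1012 in rat 74 and at 0 to 28 in the 12 other rats. In no rat did another gene of the table exceed 10 times the highest other rat, with 1 added to that other value. *Krt10* was chosen for mention after its values were seen.

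Among genes that anchor or organise keratin filaments, few were called. Of 12 desmosome genes 1 was higher at 6 weeks, and that was *Dsp* for desmoplakin, which ties keratins to the junction. It averaged 8039 ± 1241 normalized counts (SD, n = 6) at 6 weeks and 5148 ± 1354 (SD, n = 7) at 10 weeks, a log2 fold change of 0.67 (SE 0.18, adjusted p = 0.0241), and lost its call without rat 71 or 84 (0.62 in both, adjusted p = 0.0525 and 0.0579) and in the 8-rat set (0.53, adjusted p = 0.0692). *Jup* for plakoglobin (-0.54, adjusted p = 0.134) and *Perp* (0.11, adjusted p = 0.733) were not called. Among hemidesmosome genes, the plakins *Dst* (-0.42, adjusted p = 0.136) and *Plec* (0.29, adjusted p = 0.592) were not called.

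Of 9 genes listed as organising keratin, 8 were present and 1 was called higher, *Krtcap2*, at 0.66 (adjusted p = 0.0469). It encodes a subunit of the oligosaccharyl transferase complex in spite of its name. The call was lost in 10 of 13 fits that left out a rat, those without rat 70, 71, 72, 74, 78, 80, 83, 84, 86 or 87 (0.58 to 0.70, adjusted p 0.0629 to 0.107), and with median-ratio scaling (0.64, adjusted p = 0.0507). *Macf1* (-0.33, adjusted p = 0.1) and *Csnk1a1* (-0.03, adjusted p = 0.900) were not called. Of 16 intermediate filament genes outside the keratins 12 were present, with 3 higher and 3 lower at 6 weeks, beside 8.71% and 7.39% of all genes. Those higher were *Nes* for nestin (0.98, adjusted p = 0.00209), *Lmnb1* for lamin B1 of the nuclear lamina (0.49, adjusted p = 0.00421) and *Vim* for vimentin of mesenchymal cells (0.65, adjusted p = 0.00517). Their ages did not overlap and they kept their calls without any 1 rat, while in the 8-rat set *Vim* was not called (0.56, adjusted p = 0.0567). *Sync* (-0.61, adjusted p = 0.0298) was lower, a call lost without rat 70, 74, 78 or 87 (-0.62 to -0.56, adjusted p 0.0542 to 0.0672). In the 8-rat set *Sync* was not called (-0.45, adjusted p = 0.0515). Also lower at 6 weeks were *Gfap* (-0.66, adjusted p = 0.032) and *Synm* (-0.52, adjusted p = 0.0358), named because the count was small. *Gfap* lost its call without rat 71, 72, 80, 84, 85, 86 or 87 (adjusted p 0.0506 to 0.0717) and *Synm* without rat 70, 72, 74, 75, 84, 85, 86 or 87 (adjusted p 0.0511 to 0.0845), and both with library size scaling (adjusted p = 0.0599 and 0.0681).

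The keratins were set beside other markers of the same layers, all of which were present. Of 19 luminal markers other than keratins, 3 were lower and none higher at 6 weeks, with a median log2 fold change of -0.12. *Ehf*, an epithelial transcription factor, was lower at 6 weeks by 0.70 on the log2 scale (adjusted p = 0.00191) and kept its call without any 1 rat. *Kit*, the receptor of luminal progenitors, was at -0.71 (adjusted p = 0.0343), and *Epcam*, an epithelial adhesion molecule, at -0.39 (adjusted p = 0.0454). *Epcam* was nonetheless abundant in every rat, at 8992 to 12181 normalized counts at 6 weeks and 12058 to 17079 at 10 weeks. *Kit* lost its call without rat 70, 72, 74, 75, 78, 84, 85, 86 or 87 (-0.71 to -0.63, adjusted p 0.0568 to 0.0749), and *Epcam* without any 1 of the 13 (-0.43 to -0.34, adjusted p 0.0505 to 0.0808). In the 8-rat set *Epcam* was at -0.24 (adjusted p = 0.217). With library size scaling 1 of these 3 lower calls was left.

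Of 18 basal markers other than keratins, 2 were higher and 1 was lower at 6 weeks, with a median of 0.02. *Cdh3* for P-cadherin, the cadherin of basal cells, was at 0.66 (adjusted p = 0.0213), and *Sparc*, which stromal cells also make, at 1.42 (adjusted p = 0.000124), both without overlap of the ages. *Cnn1* for calponin, a part of the contractile apparatus, was at -0.46 (adjusted p = 0.0357), and lost its call without rat 70, 72, 74, 75, 83, 84, 85, 86 or 87 (-0.48 to -0.36, adjusted p 0.0510 to 0.0668). With library size scaling (-0.41, adjusted p = 0.108) and in the 8-rat set (-0.46, adjusted p = 0.0925) it was not called.

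Markers of other cells moved with age as well. Of 10 fibroblast markers 9 were present and 6 were higher at 6 weeks, led by collagen genes such as *Col3a1* (2.14) and *Col1a1* (1.92) with *Lum* (2.02) and *Fap* (2.19). The summed values of the fibroblast markers were 108286 to 224831 in the younger and 20144 to 56611 in the older rats, without overlap. Most of these sums came from *Col3a1* and *Col1a1*. The fibroblast markers that were not called, at log2 fold changes of 0.13 to 0.57, overlapped between the ages. All 7 mast cell markers were higher (sum 795 to 2068 against 48 to 479), as were 10 of 11 proliferation markers (sum 3144 to 6393 against 421 to 1627). Their part in the differences of the keratins and their ratios was not tested. When each library was scaled to its luminal markers other than keratins, a scaling added with the data in view, *Krt15* was at 0.77 (adjusted p = 0.0207). The same scaling moved the median log2 fold change of all genes from 0.03 to 0.12.

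Other sources had fewer calls. Of 8 adipocyte markers present, 3 were higher at 6 weeks, namely *Adipoq* (2.41), *Plin1* (1.94) and *Cfd* (1.48). *Adipoq* did not overlap, at 20 to 56 normalized counts at 6 weeks and 0 to 12 at 10 weeks. The adipocyte sums of 1841 to 2678 and 1994 to 3051 overlapped. Most of these sums came from *Fabp4*, which was not called (means 1745 and 1888, adjusted p = 0.764). With a pseudocount of 0.1 *Adipoq* (3.02, adjusted p = 0.0537) and *Plin1* (3.06, adjusted p = 0.0533) were not called. *Cfd* lost its call without rat 70, 71, 72, 74, 75, 80, 84 or 87 (1.19 to 1.58, adjusted p 0.052 to 0.0811). Of 5 lymphocyte markers present 1 was higher, *Cd79b* (1.79), at 1 to 16 normalized counts at 6 weeks and 0 to 3 at 10 weeks, and the call was lost without rat 70, 74, 75, 80, 81 or 87 (1.51 to 1.76, adjusted p 0.0531 to 0.0814). It was also lost with a pseudocount of 0.1 (3.22, adjusted p = 0.0505), with limma-trend (1.79, adjusted p = 0.0791), with sample quality weights (1.33, adjusted p = 0.0547) and in the 8-rat set (1.46, adjusted p = 0.159). The lymphocyte sums of 134 to 353 and 163 to 532 overlapped. None of 9 macrophage, 9 endothelial and 3 skeletal muscle markers was called, and their sums overlapped between the ages. Of 14 epidermis markers 3 were present, *Krt10*, *Calml3* and *Sbsn*, and none was called. *Calml3* was at -0.19 (adjusted p = 0.540) and *Sbsn* at -0.38 (adjusted p = 0.491), and the sums of 257 to 510 at 6 weeks and 374 to 1329 at 10 weeks overlapped.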

How the data were processed

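Total RNA of mammary epithelial cells from 13 rats was sequenced. Per the labels, the authors estimated counts with RSEM 1.2.22, and the submitters' processing notes name genome build rn5. The authors deposited 1 table with a column for each rat, whose values are a score, that is estimated counts scaled per library and rounded. The same deposited table holds the authors' own comparison of the ages as log2 fold changes and abundances, a test score, p-value columns and −log10 p columns, none of which was used. Totals of scaled values are not read depths, which were not recovered here. The strand of counting is not given in the sources used here.

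The ages were compared with limma 3.58.1 in R 4.3.3 on log2(value + 1), keeping genes whose mean reached 1, two-sided, with Benjamini-Hochberg adjustment over 14790 genes and a threshold of 0.05. A test for raw counts had been planned for raw values only. Samples were grouped by the age in their titles, and no covariate was used. Python 3.11.15 served for correlations, ratios and permutations (scipy 1.17.1, pandas 2.3.3, numpy 2.4.6) and figures (matplotlib 3.10.9). The fit and the correlation test were tested on simulated data. Levels per coding length were not analysed here, so levels of different genes were not ranked. Promoters of *Krt7*, *Krt14*, *Krt15*, *Krt17* and *Krt19* were not used here. The result of 1 listed gene is not reported here.

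The members, gene lists and tests were chosen with earlier results of these data known. Genes named are the 8 members, up to 4 called genes with the smallest adjusted p in each list, or the 2 with the highest mean where fewer than 2 were called, and the 3 genes most correlated with *Krt5*, *Krt14*, *Krt8* and *Krt18*. *Fabp4* was named in addition, because most of the adipocyte sum came from it. Alternatives tried were scaling by upper quartile, by library size and by median ratio, adding 0.1 in place of 1, requiring 10 in every rat, no minimum, limma-trend, sample quality weights, the set of rats as a term or alone, and each rat left out. Library size without the most abundant gene and scaling to luminal markers were added after the data were seen.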

Additional observations from a re-analysis of the deposited data

Results flagged for a closer look

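Dixon's test was run on 154 groups of rats of 1 age, covering most named genes and some ratios. In 13 groups the gap of a rat to the next exceeded the 95% critical value. Chance gives about 1 in 20 where values are normally distributed. The values used were normalized counts and ratios without logs, and their distribution was not checked. Among the 16 groups of the 8 keratins there was 1, *Krt7* at 10 weeks, where rat 83 had 925 normalized counts and the next rat 525. Among other keratins, rat 74 had 1012 of *Krt10* at 10 weeks (next 28) and rat 80 had 27 of *Krt222* at 6 weeks (next 7).

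Rat 81 at 10 weeks stood highest for *Sbsn* at 493 (next 251), *Cd14* at 2012 (next 1111), *Ccnb1* at 27 (next 15), *Top2a* at 282 (next 127) and *Duoxa1* at 336 (next 199). Rat 85 at 10 weeks stood highest for the mast cell genes *Mcpt1l1* at 239 (next 75) and *Cpa3* at 116 (next 36). Among the stromal and adhesion genes, rat 74 was lowest for *Col3a1* at 10482 (next 23312), rat 86 was highest at 6 weeks for *Lum* at 5862 (next 3118) and rat 71 was highest at 6 weeks for *Cdh3* at 382 (next 256).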

How the results depend on the processing

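No paired analysis was possible because every rat has a number of its own and the ages share none. The smaller set of 5 rats had no call by limma in any gene, with 1976 genes at an unadjusted p under 0.05, so calls lost there say little.

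*Krt15* was higher at 6 weeks under every alternative run. It lost its call with library size scaling (0.72, adjusted p = 0.0516) and in the smaller set (0.33, adjusted p = 0.640), and leaving out each rat gave 0.54 to 0.80. The number of basal keratins called was accordingly 0 with library size scaling and in the smaller set, and 0 to 1 with a rat left out. *Krt7* was called with sample quality weights (0.63, adjusted p = 0.0486) and without rat 86, within 0.37 to 0.73 over the rats left out. The number of luminal keratins called was 1 with those weights and 0 to 1 with a rat left out.

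The uncalled keratins changed sign as follows. With weights *Krt8* was at 0.11 and *Krt18* at 0.087, and in the larger set they were at 0.15 and 0.006. In the smaller set *Krt19* was at -0.50, *Krt5* at -0.02, *Krt14* at -0.29 and *Krt17* at -0.16. With a rat left out, *Krt18* lay at -0.17 to 0.03 (0.026 without rat 86) and *Krt19* at -0.08 to 0.24 (-0.061 without rat 70, -0.078 without 74, -0.016 without 84 and -0.018 without 87). *Krt18* was at 0.002 when scaled to luminal markers. Of uncalled genes, *Krt80* (0.36) and *Flt1* (0.31) turned in the smaller set, *Sbsn* (0.23) and *Cd14* (0.25) in the larger, and *Cd14* also with weights (0.077), without rat 81 (0.10) and scaled to luminal markers (0.002). *Csnk1a1* turned with library size scaling (0.022), with weights (0.03), with library size without the top gene (0.064), scaled to luminal markers (0.069) and without rat 74 (0.003), 75 (0.021), 80 (0.023) or 85 (0.013), within -0.068 to 0.023 over the rats left out, and *Cd14* there spanned -0.19 to 0.10.

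Over all genes, 1288 were higher and 1093 lower at 6 weeks. Weights gave 3009 and 2638, the larger set 2003 higher, and the smaller set 0 and 0. A rat left out gave 803 to 1461 higher and 608 to 1219 lower. Scaling by library size without the most abundant gene gave 1671 higher and 592 lower, and scaling to luminal markers gave 1029 and 163, both added after the data were seen. They set the median log2 fold change of all genes at 0.12. Keratin pairs past the threshold fell from 22 to 5 without the 2 farthest rats. The cause of these changes was not tested.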
